A study of Homo sapiens with 5 samples.

Results

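The 1948 regions described here held Nrf2 in BEAS-2B cells both without and with arsenic and carried no called HIF1α interval in either condition. They were chosen by presence alone: a merged region counted when it overlapped by at least 1 bp an Nrf2 interval of the control library and one of the iAs library, and no interval of either HIF1α library. They make up 9.24% of the 21088 merged regions of the series. Of the 2936 regions with Nrf2 in both libraries, these 1948 are 66.3%. The other 988 also overlapped HIF1α, 522 of them in the control library only, 131 in the iAs library only and 335 in both.

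BEAS-2B is an established line of immortalized human bronchial epithelial cells. All cells were starved of serum overnight and then left untreated (control) or given 1 µM inorganic arsenic (iAs) for 6 h, and chromatin was immunoprecipitated for Nrf2 or HIF1α. There was 1 library per factor and condition, so no value below has a replicate check, and the confidence intervals cover the counting of regions only. The Nrf2 lists held 3204 control and 7743 iAs intervals and the HIF1α lists 6008 and 12826. The intervals carry neither heights nor scores and the read depth is unknown, so that a missing HIF1α interval means only that none was called.

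Nrf2 (gene NFE2L2) is kept low in resting cells by KEAP1, which marks it for degradation, and arsenic reacts with KEAP1 so that Nrf2 accumulates. It binds DNA as a partner of small Maf proteins at the antioxidant response element (ARE), whose core is TGACNNNGC, where N is any base. The form TGACTCAGC also contains TGACTCA, the element of the AP-1 factors (Fos and Jun proteins). HIF1α binds with ARNT at the hypoxia response element (HRE), whose core is ACGTG or GCGTG.

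The following stretches of hg19 show what Nrf2 regions of this kind look like at genes of antioxidant, heme, carbon and growth factor metabolism. For each of 10 gene lists, the region with the widest control interval that held an ARE core outside UTRs was taken, with the match nearest to the centre of that interval. HMOX1, SLC48A1 and 2 regions at TXNRD1 were added after their values were seen. Each line gives the gene, the position, the strand read 5′ to 3′ and the bases, with the ARE core in capitals and 20 bases on each side.
ABCC3, chr17:48739276-48739324, minus strand: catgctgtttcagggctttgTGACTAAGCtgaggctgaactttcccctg
GLRX, chr5:95109631-95109679, plus strand: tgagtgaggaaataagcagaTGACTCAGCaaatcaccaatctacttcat
EPHX1, chr1:226005527-226005575, minus strand: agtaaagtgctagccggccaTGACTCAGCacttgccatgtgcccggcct
FTH1, chr11:61739536-61739584, minus strand: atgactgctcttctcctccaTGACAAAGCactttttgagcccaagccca
TKT, chr3:53270344-53270392, plus strand: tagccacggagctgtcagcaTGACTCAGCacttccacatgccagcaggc
MAFG, chr17:79881473-79881521, plus strand: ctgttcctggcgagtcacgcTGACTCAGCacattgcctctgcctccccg
CCN2, chr6:132275396-132275444, plus strand: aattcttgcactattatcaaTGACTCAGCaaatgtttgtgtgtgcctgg
EGFR, chr7:55133532-55133580, minus strand: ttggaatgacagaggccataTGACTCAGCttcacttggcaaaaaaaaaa
PSMA3, chr14:58711905-58711953, minus strand: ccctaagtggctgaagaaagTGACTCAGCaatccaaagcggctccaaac
PFKP, chr10:3138024-3138072, plus strand: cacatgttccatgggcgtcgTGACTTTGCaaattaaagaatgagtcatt
HMOX1, chr22:35773129-35773177, minus strand: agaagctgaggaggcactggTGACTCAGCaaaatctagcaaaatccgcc
SLC48A1, chr12:48170627-48170675, minus strand: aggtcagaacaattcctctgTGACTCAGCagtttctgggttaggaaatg
TXNRD1, chr12:104608035-104608083, plus strand: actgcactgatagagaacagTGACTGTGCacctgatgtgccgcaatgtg
TXNRD1, chr12:104674800-104674848, minus strand: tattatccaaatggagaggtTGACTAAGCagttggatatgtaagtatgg
The match lay 2 bp from the centre of the control Nrf2 interval at HMOX1, 16 bp at MAFG and 301 bp at FTH1. None of the TXNRD1 regions held the form shared with AP-1.

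In most of the regions the Nrf2 interval was wider with iAs than without. The summed control width ran from 189 to 1705 bp with a median of 305 bp, and the summed iAs width from 181 to 3569 bp with a median of 572.5 bp. The ratio of iAs to control width had a median of 1.71, with quartiles at 1.34 and 2.23 and extremes of 0.55 and 7.73. The iAs interval was the wider in 1808 regions (92.8%), equally wide in 4 and narrower in 136, and it was at least 2 times as wide in 669 (34.3%). The control span lay wholly inside the iAs span in 1515 regions (77.8%). The interval centres were a median of 57 bp apart, within 50 bp in 890 regions and over 200 bp apart in 145. In 1901 regions 1 control interval met 1 iAs interval, and in 45 regions at least 2 control intervals were bridged by a single iAs interval. These widths come from the libraries that chose the regions and are given without a test. In the 988 regions that also overlapped HIF1α the median ratio was 1.47, with a median control width of 362 bp and a median iAs width of 586 bp. Differences in depth between the libraries also change widths, and their part was not tested. The paper's methods describe down-sampling of tags within a group of samples. Whether it came before these interval calls is not given in the sources used here.

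**Figure D1:**
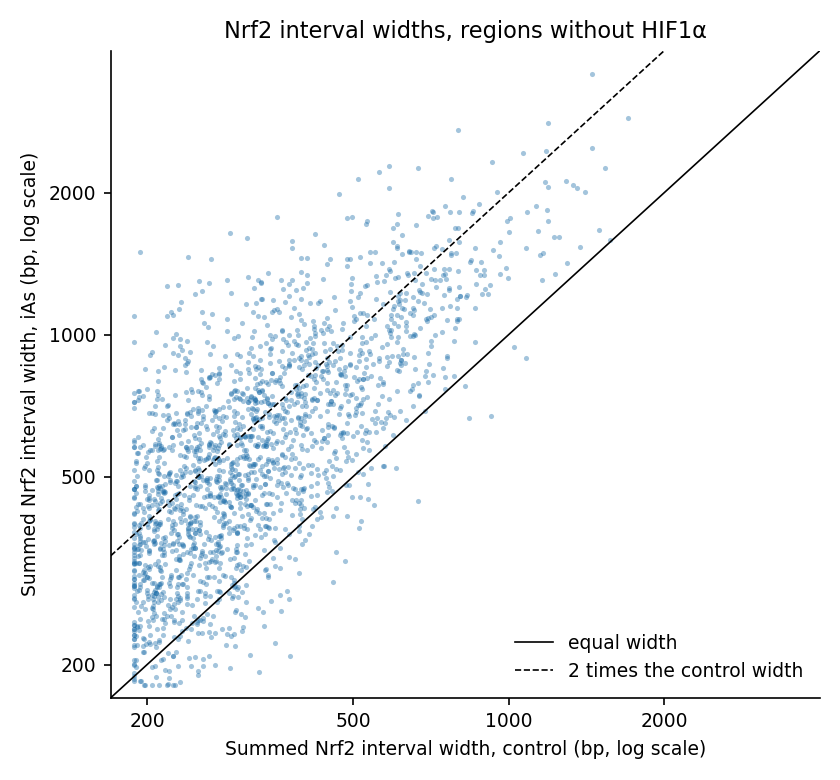
Each point is 1 of the 1948 regions, with the summed width of its Nrf2 intervals in the control library on the horizontal axis and in the iAs library on the vertical axis (bp, log scales). Of these points, 1808 lie above the solid line of equal width and 669 on or above the dashed line of 2 times the control width.

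The widest control intervals lay at genes of varied function and mostly away from start sites. The widest of all (chr16:90060550-90063425, nearest gene DBNDD1) spanned 1705 bp in the control library and 2876 bp with iAs. It is followed by a region 26.4 kb upstream of EXOC6, a subunit of the exocyst, with 1574 bp without and 1586 bp with iAs, so that its width hardly differed between the libraries. A region 246 kb upstream of CBLB, an E3 ubiquitin ligase, spanned 1539 and 2259 bp, and one 52.3 kb upstream of SCHIP1, in an intron of an annotated transcript, spanned 1494 and 1671 bp. The region in intron 8 of ABCC3, a drug export pump, spanned 1449 and 2491 bp. The region 6.41 kb upstream of ASPH, an aspartyl hydroxylase, widened from 1448 to 3569 bp and held the widest iAs interval of all 1948 regions. The last 4 of the 10 widest lay downstream of FAM50B with 1409 and 2012 bp, in intron 1 of BRD2 with 1375 and 1533 bp, in intron 4 of TKT with 1357 and 2043 bp, and 116 kb upstream of GRHL2 with 1332 and 2073 bp. GRHL2 is a transcription factor of epithelial cells and TKT is transketolase of the pentose phosphate pathway. Of these 10 regions only that at BRD2 lay in a promoter, and 9 held at least 1 ARE core, the exception being the region upstream of CBLB.

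The 1948 regions lay in introns and between genes rather than at promoters. Each region centre was placed in 1 of 6 classes by the basic transcripts of protein-coding genes, the promoter being the 3 kb upstream of a transcription start site (TSS). Of the centres, 926 (47.5%, 95% confidence interval 45.3 to 49.8%) were distal intergenic and 864 (44.4%, 42.2 to 46.6%) intronic. Promoters held 115 (5.90%, 4.94 to 7.04%), against 31.8% of all merged regions, while 3′-UTRs held 20, exons 14 and 5′-UTRs 9. All merged regions, here and below, include those with HIF1α and no Nrf2. Within 100 bp of the centre, median GC content was 64.7% for all merged regions and 43.8% for the 1948. The median distance to a TSS was 38944 bp, 850 regions (43.6%) lay more than 50 kb from one and 90 (4.62%) within 1 kb.

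Where Nrf2 stood alone, promoters were rarer than where it overlapped HIF1α. Of the 988 regions with Nrf2 in both libraries and HIF1α, 26.3% lay in promoters, and the difference was -20.4 percentage points (-23.4 to -17.5; adjusted p = 2.6e-51, two-sided Fisher's exact test with Benjamini-Hochberg adjustment over 42 shares). Introns went the other way, with 44.4% against 29.9% (difference 14.5 points, 10.8 to 18.0; adjusted p = 4.5e-14, same exact test). Distal intergenic sequence also took a larger share, 47.5% against 38.9% (adjusted p = 1.6e-05, same exact test). Regions with HIF1α in both libraries and no Nrf2 lay mostly in promoters, at 61.2%, with 8.23% between genes. Against the 3516 regions with Nrf2 in the iAs library only and no HIF1α, no location share differed past the threshold. The promoter share there was 6.97%, a difference of -1.06 points with an interval from -2.38 to 0.322. These tests compare regions of 4 libraries and say nothing of variation between cultures.

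The AP-1 form of the ARE was more frequent in these regions than in the classes they were compared with. Within 100 bp of the region centre, on either strand, 470 regions (24.1%, 22.3 to 26.1%) held TGACTCAGC, against 5.83% of all merged regions. Of the regions where Nrf2 in both libraries overlapped HIF1α, 9.72% held it, 14.4 points less (11.7 to 17.0; adjusted p = 4.5e-22, exact test as above). The regions with Nrf2 only after iAs held it in 17.3%, 6.83 points less (4.58 to 9.13; adjusted p = 3.7e-09, exact test). That difference shrank to 3.70 points and missed the threshold (adjusted p = 0.0890, exact test) with comparison regions of like width. For this, here and below, only the comparison class was limited to 403 to 843 bp, the width quartiles of the 1948. All 1948 regions of any width were kept and set against 607 regions with Nrf2 only after iAs. In the same windows moved by 5 kb, 0 of 1948 held TGACTCAGC, which allows a share of up to 0.154%, and of the regions with HIF1α in both libraries and no Nrf2, 0.0827% held it.

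The wider ARE core TGACNNNGC, which every TGACTCAGC also matches, was present in 811 regions (41.6%), against 17.4% of all merged regions, 23.5% with HIF1α and 33.8% with Nrf2 after iAs only. In windows moved by 5 kb it was found in 6.62%. TGACTCA, which is likewise part of TGACTCAGC, was present in 913 (46.9%), against 16.2% of all merged regions. TGACTCA outside TGACTCAGC, here and below, means a window with TGACTCA and no TGACTCAGC, an AP-1 element without the end of the ARE. A separate TGACTCA beside a TGACTCAGC is not counted, so the frequency of TGACTCAGC also shapes this share. TGACTCA outside TGACTCAGC was found in 443 regions (22.7%) and in 3.03% of the moved windows. Its share was lower than in the regions with Nrf2 after iAs only, 880 of 3516, by a difference of -2.29 points that missed the threshold (-4.61 to 0.0866; adjusted p = 0.0791, exact test). With HIF1α overlap the share was 18.8%, a difference of 3.92 points (0.785 to 6.92; adjusted p = 0.0220, exact test). With windows of like GC content, its share was 25.3% here and 25.6% where Nrf2 overlapped HIF1α, and that difference of -0.349 points missed the threshold (adjusted p = 0.932, exact test). Any TGACTCA, inside TGACTCAGC or not, was found in 48.2% and 33.3% of these windows.

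The HRE core was less frequent here than where Nrf2 overlapped HIF1α. ACGTG or GCGTG was found in 373 regions (19.1%, 17.5 to 21.0%), against 20.4% of the windows 5 kb away and 41.6% of all merged regions. With HIF1α overlap it was found in 34.3% of the regions, a difference of -15.2 points (-18.6 to -11.8; adjusted p = 1.3e-18, exact test). The GC box GGGCGG, the element of SP factors that is common in promoters, stood at 4.16% here and 21.0% with HIF1α, and the windows had a median GC content of 43.8% and 53.2% respectively. In windows of like GC content (38.8 to 50.7%), the GC box was found in 1.36% and 1.99%, whereas TGACTCAGC was still found in 22.9% and 7.69%. The HRE core was found in 17.1% and 27.9% of these windows. CATTCC, the element of the TEAD factors, was present in 384 regions (19.7%) and in 10.2% of the moved windows. It differed by -0.530 points from the regions with HIF1α (-3.66 to 2.48; adjusted p = 0.769, exact test) and by -0.538 points from those with Nrf2 after iAs only (-2.72 to 1.70; adjusted p = 0.696, exact test). In windows of like GC content, however, it was found in 21.7% here and in 28.8% with HIF1α, a difference of -7.08 points that passed the threshold (adjusted p = 0.0144, exact test). The cyclic AMP response element TGACGTCA was found in 4 regions.

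**Figure D2:**
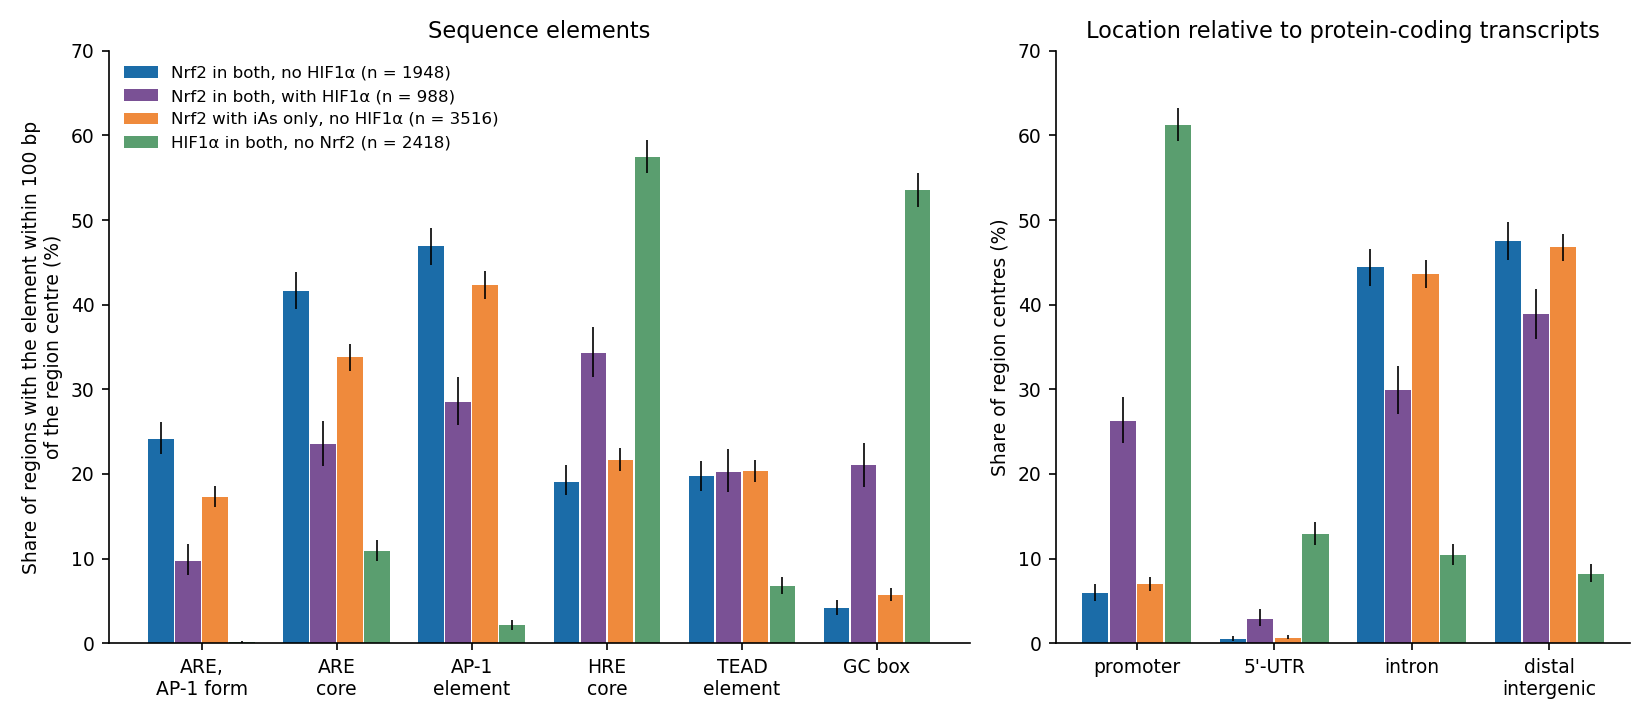
Bars give the share of regions of 4 classes with a sequence element within 100 bp of the region centre (left) or with the centre in a location class (right), and lines give Wilson 95% confidence intervals. The regions with Nrf2 in both libraries and no HIF1α have the highest share of the AP-1 form of the ARE, 24.1%, and 5.90% of them lie in promoters, against 26.3% with HIF1α.

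Counted over the whole regions, the ARE core was present in 1234 (63.3%) and absent from 714 (36.7%). It occurred once in 920 regions, at least 2 times in 314 and at least 5 times in 5. TGACTCAGC was present in 724 regions (37.2%). A further 449 regions held TGACTCA but no ARE core, and 265 (13.6%) held neither. The middle bases of the 1675 ARE cores were TCA in 799 (47.7%), followed by TAA in 98, ACA in 86 and AGA in 60. In regions with HIF1α overlap TCA made up 30.9% and in regions with Nrf2 after iAs only 44.9% of the cores.

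The bases beside TGACTCAGC were also uneven. An A followed the element in 72.3% of the 799 matches, against 48.9% of the 233 matches with HIF1α overlap and 57.9% of the 727 in regions with Nrf2 after iAs only. An A or G came before it in 90.2%, against 83.7% and 83.1%. Without the regions that held at least 5 matches these 2 shares were 70.7% and 89.7%. The genome holds 33199 copies of TGACTCAGC, of which 2.41% lay within the 1948 regions and 5.61% within any merged region.

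The element lay closest to the middle of the control intervals. Within 100 bp of the centre of the control interval, TGACTCAGC was found in 603 regions (31.0%, 28.9 to 33.0%), against 466 (23.9%) around the centre of the iAs interval. Of the matches within 500 bp, 55.9% lay within 50 bp of the control centre and 38.9% within 50 bp of the iAs centre. The control interval, which was mostly the narrower, had the element nearer to its centre. For the regions with Nrf2 after iAs only, 50.9% of the matches lay within 50 bp of the region centre.

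**Figure D3:**
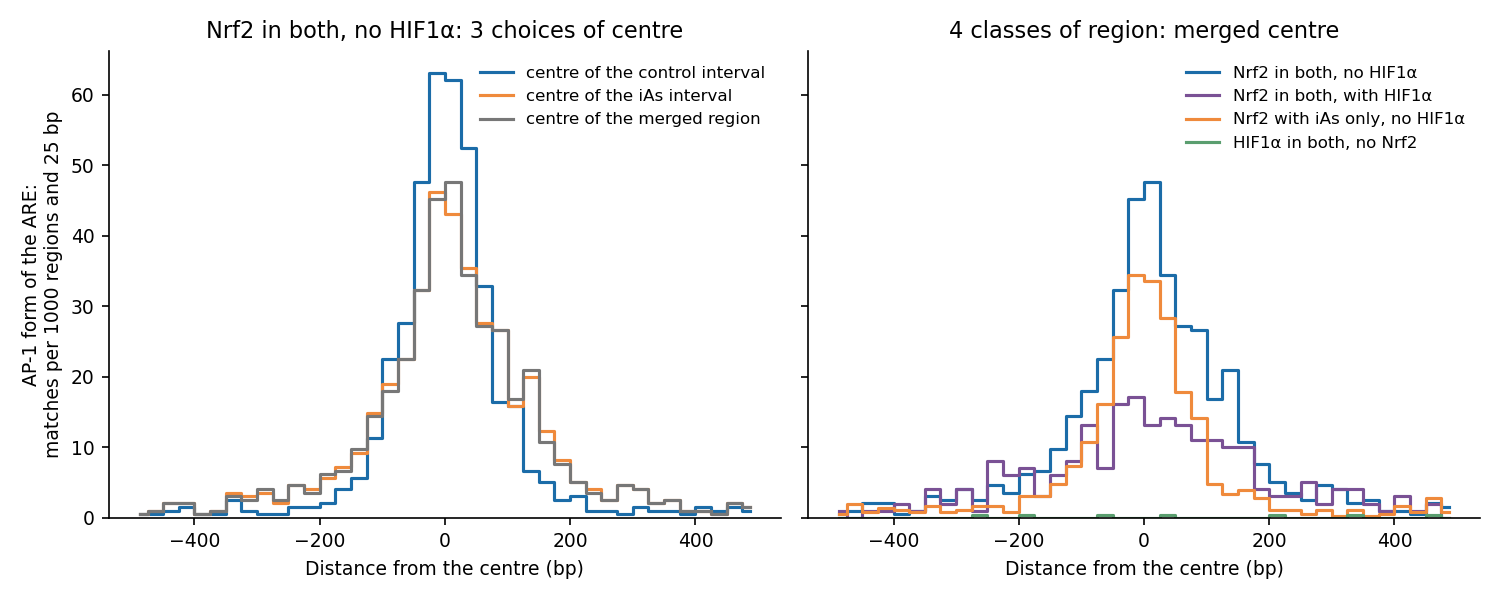
The number of TGACTCAGC matches per 1000 regions in bins of 25 bp is plotted against the distance from the centre (bp), for the 1948 regions with 3 choices of centre (left) and for 4 classes of region around the merged centre (right). The profile is highest and narrowest around the centre of the control interval, where 55.9% of the matches within 500 bp lie within 50 bp.

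Regions that widened most with iAs held the AP-1 form of the ARE most often at the centre of the control interval. The 1948 regions were split into 4 groups of 487 by the ratio of iAs to control width. In windows around the control centre, TGACTCAGC was found in 18.5% (15.3 to 22.2%) of the group with ratios of 0.55 to 1.34, in 26.3% and 36.3% of the middle groups, and in 42.7% (38.4 to 47.1%) of the group with ratios from 2.23 to 7.73. The ARE core followed the same order, from 36.1% to 62.8%. TGACTCA outside TGACTCAGC stood at 31.0% (27.1 to 35.2%) in the lowest group and 22.0% (18.5 to 25.9%) in the highest. Windows with TGACTCAGC cannot count there, so this share has less room where TGACTCAGC is frequent. Any TGACTCA, inside TGACTCAGC or not, went from 49.5% in the lowest group to 64.7% in the highest. The group of lowest ratio includes regions that were narrower with iAs. The HRE core stayed between 16.4% and 21.6% over the 4 groups. Median control widths of the groups were 304, 321, 314 and 281 bp and median GC contents 43.8 to 44.3%.

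Around the centre of the merged region, which the iAs interval mostly sets, the order was less clear. There TGACTCAGC was found in 19.5%, 24.8%, 28.1% and 24.0% of the 4 groups, and TGACTCA outside it in 32.0%, 26.1%, 19.5% and 13.3%. Any TGACTCA was found in 51.5%, 50.9%, 47.6% and 37.4%. The groups come from the widths of the same 2 libraries that chose the regions, and no test was made across them.

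**Figure D4:**
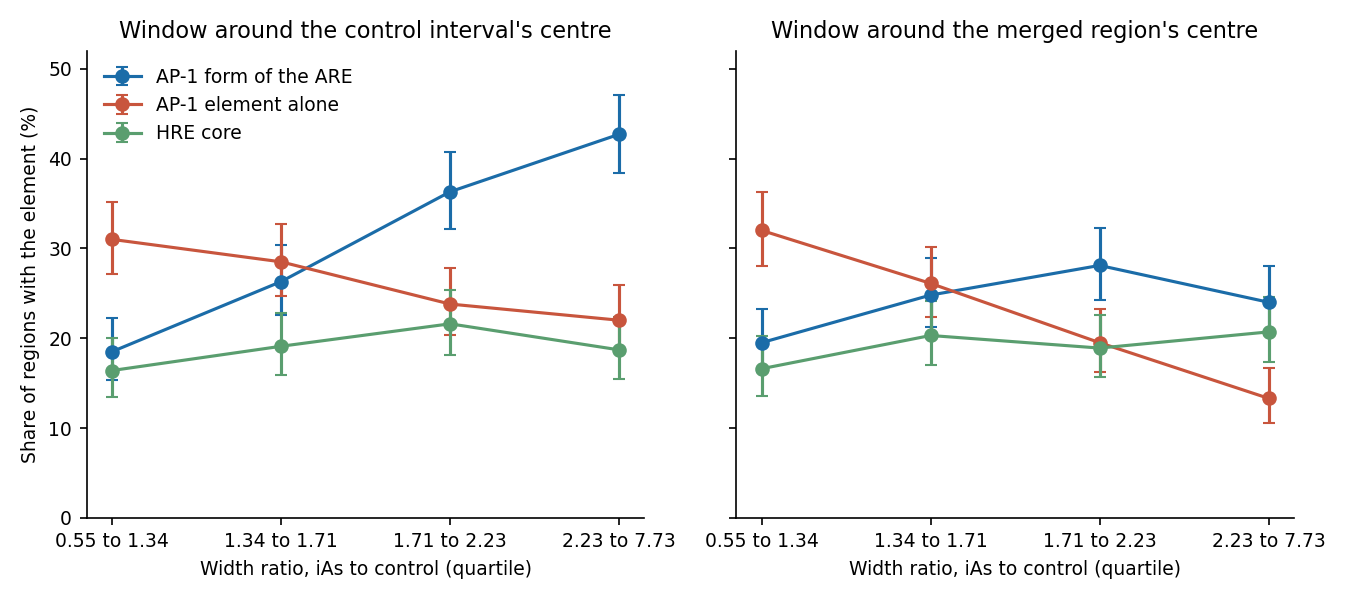
Points give the share of regions with an element within 100 bp of the centre of the control interval (left) or of the merged region (right) in 4 groups of 487 regions by the ratio of iAs to control width, and bars give Wilson 95% confidence intervals. Around the control centre the AP-1 form of the ARE goes from 18.5% to 42.7% and the AP-1 element alone from 31.0% to 22.0%. The AP-1 element alone is counted only in windows without the AP-1 form of the ARE.

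The share with the element was also taken by location, without a test. TGACTCAGC was found within 100 bp of the merged centre in 27.0% (24.1 to 30.0%) of the 864 intronic regions, 22.7% (20.1 to 25.5%) of the 926 distal ones and 16.5% (10.8 to 24.4%) of the 115 in promoters. The median width ratio was 1.74, 1.68 and 1.68 in these classes.

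Of 20136 protein-coding genes, 1269 (6.30%) had at least 1 of the regions in the gene body or within 10 kb, and 1220 of the regions (62.6%) lay that close to a gene. Longer genes offer more room, and genes with a region had a median length of 99259 bp against 27217 bp for all. Of the 278 genes in 11 lists, 47 (16.9%) had one. Regions with Nrf2 in both libraries that overlapped HIF1α lay at 50 of these 278 genes (18.0%) and at 4.88% of all protein-coding genes. Both kinds of region were present at 13 of the listed genes (4.68%) and at 1.05% of all protein-coding genes. The lists were drawn up with earlier results of these data known, so the counts describe the lists and were not tested. Some of the counts below also move with the way regions are given to genes, as does the share of all protein-coding genes. That share was 4.75% with the gene body alone and 5.19% with 2 kb around it. It was 11.9% with 50 kb and 7.66% with the nearest TSS. With the gene body alone or with 2 kb around it, the count was 2 for heme and iron genes, against 4, 1 for AP-1 genes, against 2, and 3 for adhesion genes, against 6. With 50 kb, the count was 9 for partners and regulators of Nrf2, against 3, 4 for the AP-1 list and 10 for adhesion. With the nearest TSS it was 5, 4 and 12 for these lists, 4 for the EGF receptor list, against 2, and 1 each for thioredoxin and proteasome genes, against 2.

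Genes of glutathione synthesis, use and export had a region at 10 of 31 (32.3%), with a median gene length of 27596 bp. This was the largest share of the 11 lists, but when each region went to the nearest TSS alone, it was 9 genes, and 12 of 36 adhesion genes (33.3%) and 4 of 13 genes of the EGF receptor list (30.8%) had a larger one. With the gene body alone or with 2 kb around it, 7 of the 31 genes had a region. The widest control interval was that in intron 8 of ABCC3 (chr17:48737399-48739889). Next came the region in intron 1 of MGST1, a membrane glutathione transferase, with 992 bp without and 1739 bp with iAs. SLC7A11, the cystine importer, had a region in intron 2 with 796 and 1072 bp and another over exon 1 with 332 and 1190 bp. Its exon 1 region (chr4:139162744-139163933) held no ARE core, and the nearest HIF1α interval was 771642 bp away in the control library. ABCC2, an export pump for conjugates, had 3 regions. They lay 6.64 and 2.78 kb upstream of the TSS and over exon 2, and widened from 390 to 1024, from 275 to 849 and from 266 to 1446 bp, the last by a ratio of 5.44. No HIF1α interval lay within 42996 bp of them. GPX4, which reduces lipid peroxides, had a region 4.38 kb upstream with 497 bp without and 544 bp with iAs. GSR, glutathione reductase, had one in intron 1 with 306 and 466 bp. ABCC1, another export pump, had 2 and its relative ABCC5 had 1. GSTM1 and GSTM2 shared a single region downstream of both, with 498 and 1775 bp, at 31.6 and 51.3 kb from their start sites. GCLC and GCLM, the subunits of the enzyme that starts glutathione synthesis, and GSTP1 had Nrf2 in both libraries only in regions that overlapped HIF1α. GSR, GPX4, ABCC1 and ABCC3 had such regions as well, besides those described above.

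In the thioredoxin and peroxiredoxin list, 2 of 21 genes had a region. TXNRD1, thioredoxin reductase, had 5, more than any other listed gene. They lay 1.57 kb upstream and at 11.1, 61.8, 65.3 and 66.0 kb in introns 1 and 3. Control widths were 227, 225, 417, 203 and 213 bp, and iAs widths 276, 386, 581, 906 and 362 bp. All 5 lay between 5233 and 10781 bp from the nearest control HIF1α interval. With iAs the upstream region was 1386 bp from one and the others 5069 to 9163 bp, and the region with the widest iAs interval was the 4th. TXNRD1 also had 2 regions in introns 1 and 3 where Nrf2 overlapped HIF1α in all libraries, with 1808 and 2142 bp of control Nrf2 interval, so that its widest Nrf2 intervals are not among the 1948. The other gene was GLRX, glutaredoxin, with a region of 522 and 806 bp. This region lay downstream of the canonical transcript, 48.8 kb from its TSS, in an intron of an annotated transcript. With the gene body alone, the list still had 2 genes with a region. TXN, SRXN1 and PRDX1 had only regions with HIF1α.

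Of 25 quinone, aldo-keto and carbonyl reductase genes, 4 had a region. EPHX1, an epoxide hydrolase, had 930 bp without and 2327 bp with iAs in intron 1. AKR1C3, an aldo-keto reductase, had 532 and 1103 bp at 22.6 kb upstream of its TSS. NQO2, a quinone reductase, had a region in intron 1 that widened from 189 bp, the lowest control width among the 1948, shared with other regions, to 752 bp, and a second downstream with 402 and 658 bp. PTGR1, a prostaglandin reductase, had 286 and 1306 bp at 2.28 kb upstream. NQO1, AKR1B10, CBR1 and ALDH3A1 had only regions with HIF1α.

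In the heme and iron list 4 of 25 genes had a region, each with at least 1 TGACTCAGC. FTH1, the ferritin heavy chain, had 1181 bp without and 2447 bp with iAs at 4.86 kb upstream. HMOX1, which cleaves heme, had 728 and 1773 bp at 3.74 kb upstream, between a region 8.85 kb upstream that overlapped HIF1α in both libraries and a region at the TSS with Nrf2 and HIF1α after iAs only. SLC48A1, a heme transporter, had 512 and 2142 bp in intron 1, a ratio of 4.18, with 3 copies of TGACTCAGC. BLVRB, a biliverdin reductase, had 305 and 480 bp in intron 1. FTL, FECH, ALAD, UROD and ABCB6 had only regions with HIF1α.

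The NADPH and pentose phosphate list had 3 of 17 genes with a region. Besides TKT these were ME3, a mitochondrial malic enzyme, with 214 and 342 bp in intron 2, and NADK, NAD kinase, with 226 and 486 bp in intron 3. TALDO1 and ME1 had only regions with HIF1α. Of 25 partners and regulators of Nrf2, 3 had a region. BACH1, a repressor at AREs, had 506 and 687 bp at 113 kb upstream of its canonical TSS. Its relative BACH2 had 485 and 540 bp in intron 3 and 234 and 297 bp in intron 1. MAFG, a small Maf partner, had 424 and 850 bp in intron 1. The regions at BACH1 and BACH2 held no ARE core. NFE2L2, KEAP1, MAFK, SQSTM1 and RXRA had Nrf2 in both libraries only together with HIF1α. MAFG also had such a region, 0.933 kb from its TSS.

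**Figure D5:**
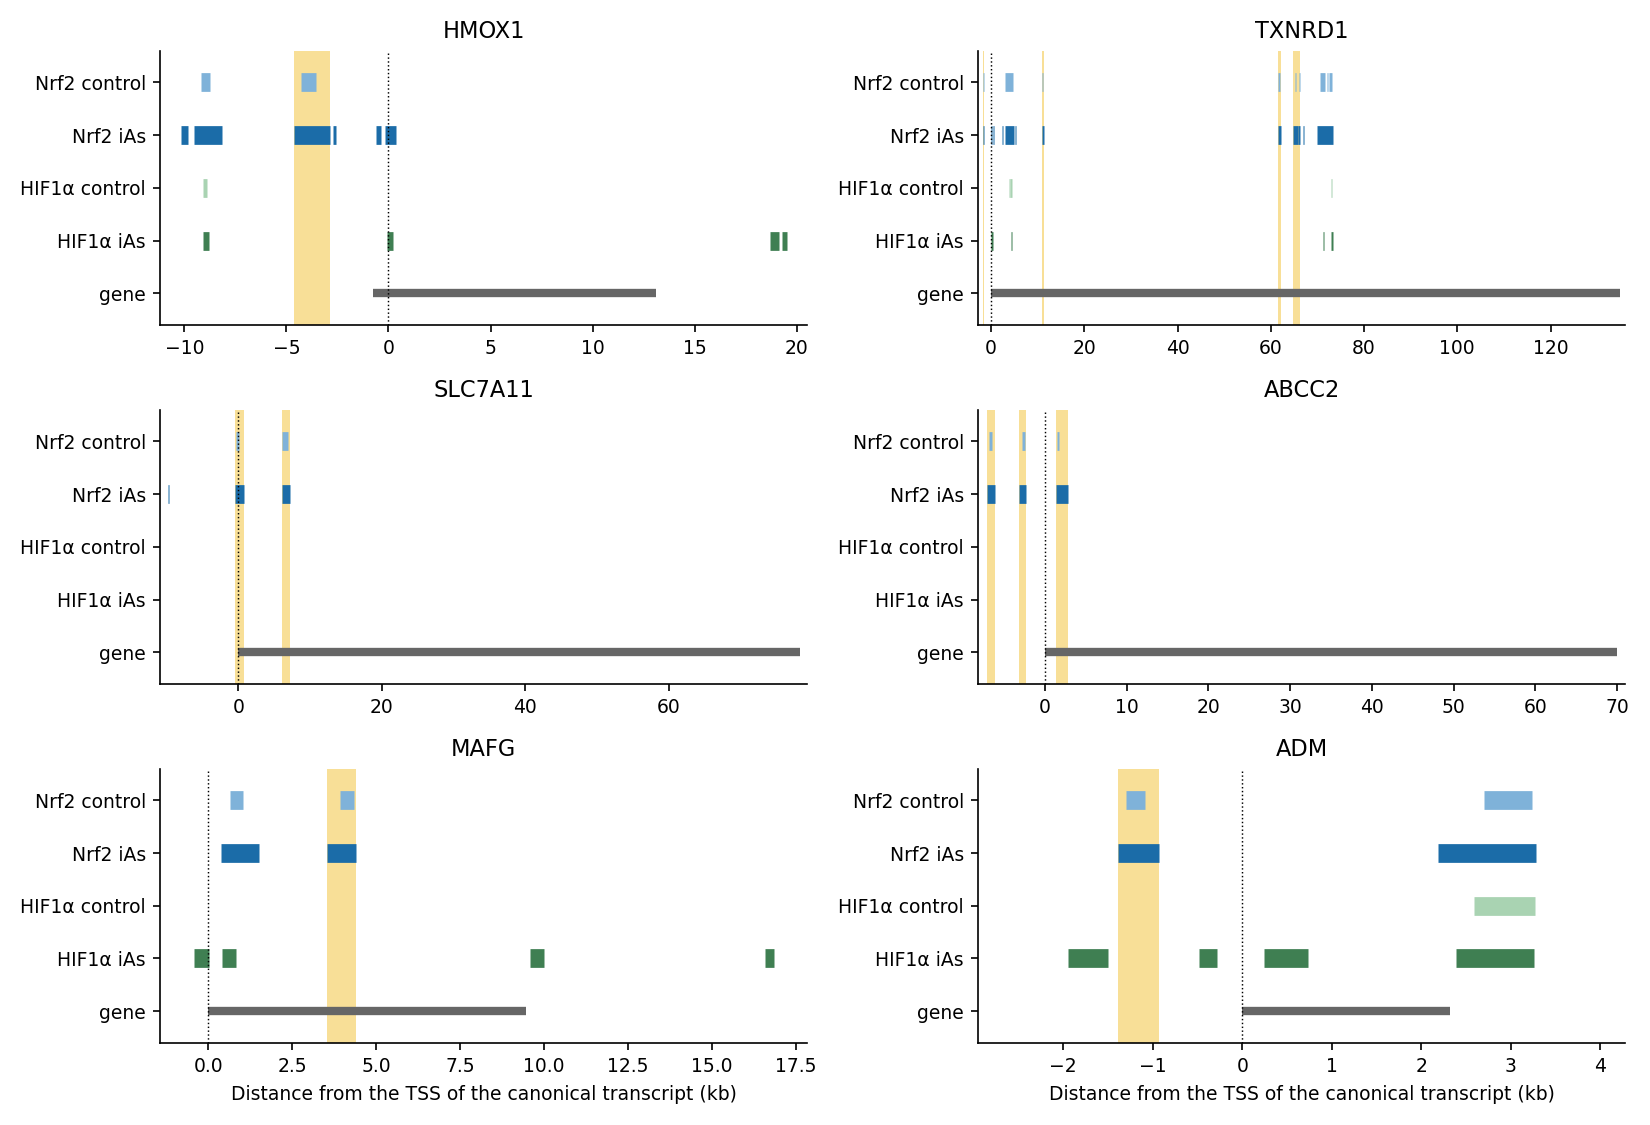
Called intervals of the 4 libraries are drawn as bars at HMOX1, TXNRD1, SLC7A11, ABCC2, MAFG and ADM against the distance from the TSS of the canonical transcript (kb), with the gene as a grey bar and the regions with Nrf2 in both libraries and no HIF1α shaded yellow. SLC7A11 and ABCC2 show no HIF1α interval within 10 kb of the gene, while at HMOX1 the shaded region, 3.74 kb upstream, lies between 2 places with HIF1α.

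In the AP-1 list 2 of 14 genes had a region, and neither region held an ARE core. ATF3 had 270 bp without and 686 bp with iAs at 12.6 kb upstream, and FOSB had 243 and 329 bp downstream. Of 36 genes of adhesion, matrix and epithelial-mesenchymal transition, 6 had a region. The widest was at CCN2, a matricellular growth factor, with 861 and 1138 bp at 3.07 kb upstream. LAMA3, a laminin chain of epithelial basement membranes, had 568 and 741 bp in intron 2 with 2 copies of TGACTCAGC. COL4A2, a collagen of basement membranes, had 2 regions, with 347 and 587 bp in intron 4 and 321 and 695 bp in intron 20. The integrin genes ITGB1 and ITGB6 and the repressor gene ZEB2 had narrow ones without an ARE core, with control widths of 244, 211 and 189 bp. These regions were distal intergenic. They lay 27.7 kb upstream of ITGB1, 5.46 kb upstream of ITGB6 and downstream of ZEB2, 162 kb from its TSS.

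EGFR had 2 of the regions, both in intron 1. That at 115 kb from the TSS (chr7:55200496-55201988) spanned 1165 bp without and 1493 bp with iAs and held no ARE core, while that at 46.8 kb spanned 421 and 733 bp and held 1. TGFA, a ligand of the receptor, had 305 and 1060 bp in intron 1, and no other of the 13 genes of this list had one. Of 35 proteasome genes, PSMA3 and PSMD1 (5.71%) had a region, a share near that of all genes. PSMA3 had 537 and 570 bp in intron 1, 0.282 kb from its TSS, and 5 other subunit genes had only regions with HIF1α. PSMD1 also had a region with HIF1α, 0.178 kb from its TSS.

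Genes of glycolysis and the hypoxia response had regions without a called HIF1α interval at 9 of 36, and all 9 also had an iAs HIF1α interval elsewhere in the gene or within 10 kb. PFKP, phosphofructokinase, had the widest, with 1300 and 1418 bp in intron 2. PKM, pyruvate kinase, had 644 and 1112 bp at 6.04 kb upstream, and ENO1, enolase, had 267 and 826 bp in intron 2. GAPDH had 445 and 1088 bp at 1.80 kb upstream with 2 copies of TGACTCAGC, and the next HIF1α interval began 90 bp away. EGLN3, a prolyl hydroxylase that acts on HIF1α, had 458 and 960 bp at 0.566 kb upstream. ADM, adrenomedullin, had 210 and 460 bp at 1.16 kb upstream, 115 bp from an iAs HIF1α interval. NDRG1 had 270 and 552 bp in intron 1 with 2 copies of TGACTCAGC. EPAS1, the HIF2α gene, and PFKFB3 had 262 and 552 bp and 340 and 580 bp, neither with an ARE core. Regions where Nrf2 in both libraries overlapped HIF1α lay at 9 of the 36 genes as well. GAPDH, ENO1, EGLN3 and ADM had both kinds, with HIF1α in both of its libraries. Over all lists 37 of the 47 genes with a region (78.7%) had an iAs HIF1α interval in this range, as had 845 of the 1269 genes with a region (66.6%) and 54.8% of all protein-coding genes.

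The genes with most regions were long. AK5, an adenylate kinase gene of 278 kb, had 6, all in introns, with control widths of 217 to 457 bp and iAs widths of 364 to 862 bp. ADAM12, a metalloprotease gene of 376 kb, had 5, of which that in intron 11 was slightly narrower with iAs (524 and 506 bp). TXNRD1, with 135 kb, was the shortest of these genes. FBXL13, KALRN, SDK1 and ZFHX3 had 4 each over 264 to 1109 kb. All 4 regions in KALRN held TGACTCAGC, as did 3 of 4 in SDK1 and 1 of 4 in FBXL13 and in ZFHX3. When each region went to the nearest TSS alone, AK5, TXNRD1 and KALRN had 2 each and FBXL13 had 0, so that this order holds only for regions in or within 10 kb of the gene. Of the 1269 genes, 1087 had 1 region, 153 had 2 and 29 had at least 3.

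Most of the regions had no other of their kind nearby. Another of the 1948 lay within 10 kb of 189 (9.70%) and within 50 kb of 472 (24.2%). A further iAs Nrf2 interval outside the region lay within 10 kb of 703 (36.1%), and a further control interval within 10 kb of 305 (15.7%).

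HIF1α was absent from the regions by choice, and the distance to it varied widely. The nearest HIF1α interval of either library was a median of 43164 bp away, within 10 kb of 406 regions (20.8%) and within 50 kb of 1050 (53.9%). For the regions with Nrf2 after iAs only the median was 38298 bp, and 25.8% had one within 10 kb. By library, the nearest interval was a median of 95580 bp away in the control library and 74872 bp with iAs. It lay within 10 kb of 266 regions (13.7%) in the control library and of 252 (12.9%) with iAs, and within 1 kb of 41 and 44. The 252 regions with an iAs HIF1α interval within 10 kb were closer to genes, with a median TSS distance of 5983 bp against 47082 bp for the other 1696, and 14.3% of them lay in promoters against 4.66%. TGACTCAGC was found in 25.4% and 23.9% of these 2 groups and the median width ratio was 1.78 and 1.71.

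The edge of the choice is narrow for a few regions. The 3 regions nearest to HIF1α were those in intron 1 of KLHL21, 1.17 kb upstream of DUSP14 and downstream of GNGT2, with gaps of 28, 51 and 57 bp to an iAs HIF1α interval. Just outside, the regions upstream of HSPA1B and LRR1 overlapped an iAs HIF1α interval by 188 bp each, and that upstream of SPSB1 overlapped a control one by 190 bp.

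A few of the regions held repeated sequence, and it is shown because their intervals span many copies of the element. They were picked after their values were seen. The widest control interval of all, downstream of DBNDD1, spans a tandem array with 49 ARE cores, 39 of them TGACTCAGC, at a median spacing of 27 bp. A stretch of 157 bases of it, with ARE cores in capitals, holds 7. In intron 7 of HTRA3, 5 copies of TGACTCAGC stand exactly 26 bp apart, in a region of 381 bp without and 1530 bp with iAs.
DBNDD1, chr16:90061925-90062081, plus strand: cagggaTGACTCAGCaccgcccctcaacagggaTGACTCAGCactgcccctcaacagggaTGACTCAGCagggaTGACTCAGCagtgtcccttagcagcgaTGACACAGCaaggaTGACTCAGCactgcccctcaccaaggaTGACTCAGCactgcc
HTRA3, chr4:8305453-8305609, plus strand: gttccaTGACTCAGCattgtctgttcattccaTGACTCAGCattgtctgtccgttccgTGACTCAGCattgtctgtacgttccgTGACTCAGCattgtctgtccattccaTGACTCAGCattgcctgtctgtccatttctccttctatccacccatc
Of the 724 regions with TGACTCAGC, 25 (3.45%) had a copy that was identical, with 10 bases on each side, to another site of the genome. Reads from such copies can be placed wrongly, and their part in these intervals was not tested.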

How the data were processed

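ChIP-seq of Nrf2 and HIF1α was done in BEAS-2B cells, with 1 library per factor and condition and a pooled list of merged regions. The authors deposited positions (start and end of each interval and of each merged region) on hg19, with no score or depth. The submitters' processing notes name BWA and MACS2 2.1.0, the methods MACS or SICER and down-sampling of tags, and which caller made each list is not given in the sources used here. No 2 intervals of a library overlapped and none passed a chromosome end.

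Starts were made 1-based. Overlap needed 1 bp. Widths were summed per region and library. Motifs were searched on both strands within 100 bp of the region centre and in windows moved by 5 kb. Centres were classed with GENCODE release 44 on GRCh37 (20136 protein-coding genes, 64210 basic transcripts). The order was promoter (3 kb), 5′-UTR, exon, intron, 3′-UTR, distal intergenic. An exon was its coding part, or the whole exon in transcripts without a reading frame. Shares were compared by two-sided Fisher's exact tests, adjusted over 42 (Benjamini-Hochberg, threshold 0.05), with Newcombe intervals of differences and Wilson 95% intervals of shares. A limit for a count of 0 is 3 counts. Python 3.11.15, SciPy 1.17.1, pandas 2.3.3 and pysam 0.24.0 were used, and the steps were tested on simulated data.

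The regions and gene lists were chosen with earlier results of these data known. Named genes were those of 11 lists with a region within 10 kb, the nearest genes of the 10 widest control intervals, the 5 genes with most regions (7 with ties) and the 3 regions on each side of the HIF1α criterion. The antibodies are from Active Motif in the methods and from Santa Cruz and Abcam in the labels. Some sequences and genes are not reported here.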

Additional observations from a re-analysis of the deposited data

How the results depend on the processing

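The region set moved most with how presence was defined: 928 regions remained with only the wider 50% of each Nrf2 list and 1216 with a reciprocal overlap of 50% between control and iAs intervals, against 1948. Regions merged anew (1948), no HIF1α within 1 kb (1877) and autosomes with X (1948) changed it little. The median width ratio was 1.73 with the widest interval per library and 1.71 with no HIF1α within 1 kb, and was not taken for the other sets. Genes with a region numbered 2406 with 50 kb around the gene. HIF1α intervals lay within 5 kb of 167 (control) and 139 (iAs) regions and within 50 kb of 718 and 791.

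Of 144 motif differences under alternatives, 112 kept direction and side of the threshold and 15 changed sign. Of 72 location differences, 62 kept both and 8 changed sign. Differences are percentage points, regions described minus comparison class. Against Nrf2 after iAs only, the whole region as window, which is longer here, gave 5.74 for TGACTCA outside TGACTCAGC, 18.1 for the HRE core, 17.9 for CATTCC and 4.05 for GGGCGG, all of opposite sign. With 50 bp on each side, TGACTCA (1.14), the HRE core (-0.00800) and GGGCGG (-0.785) missed the threshold. So did TGACTCAGC (3.70), the HRE core (-0.622) and GGGCGG (-0.619) with regions of like width, and TGACTCA (2.81), the HRE core (-2.19) and GGGCGG (-0.861) with no HIF1α within 1 kb, where TGACTCA outside TGACTCAGC (-3.45) passed it. With windows of like GC content, an alternative added after seeing the data, the HRE core (-2.04) missed it. Differences that were under the threshold both times also changed sign: TGACGTCA with the whole region (0.298), like width (0.205) and like GC (0.0771), and TGACTCA outside TGACTCAGC (1.31, 3.14) and CATTCC (1.52, 1.26) with the centre of the Nrf2 interval and with like width. Among locations these were 3′-UTRs with a promoter of 1 kb (-0.00274), 5′-UTRs (0.297), exons (0.0597) and introns (-2.10) with like width, and promoters and distal sequence with no HIF1α within 1 kb (0.249, -0.341) and with transcripts of all gene types (0.0413, -1.31), also added after seeing the data.

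Against Nrf2 with HIF1α, TGACGTCA passed the threshold with the whole region (-1.56), the centre of the Nrf2 interval (-0.909) and regions of like width (-0.715). CATTCC changed sign, under the threshold, with the centre of the Nrf2 interval (0.207). TGACTCA outside TGACTCAGC missed it with like width (2.30) and turned to -0.349 with like GC, where CATTCC passed it (-7.08) and GGGCGG missed it (-0.632). Exons (-0.570) and 3′-UTRs (0.658) missed it with like width. Against HIF1α without Nrf2, TGACGTCA (0.292) and CATTCC (-3.31) turned with like GC, where 48 comparison regions were left. The cause of these changes was not tested. List counts under other assignments of regions to genes moved by over 1.5 times in 15 of 44 cases. No paired analysis was possible because each group holds 1 library.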
